A study of Danio rerio with 6 samples.

Results

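Genes that drive cells into mitosis, fasten chromosomes to the spindle, hold back anaphase and cut the dividing cell apart were compared between 2 groups of zebrafish (Danio rerio) livers. The list of 59 gene symbols was drawn up by gene function, with earlier results of these data known. Kinesins were left out except cenpe, a kinetochore motor. Each symbol was looked up in the names of the 30628 genes of the count table, with letter case ignored and a paralogue suffix allowed to be missing. A total of 57 symbols had a row, and cenpa and incenp were not analysed here. The symbol cks2 had 2 rows, so 58 rows are described. The survivin gene birc5a stands in the table as BIRC5. The genes prc1a and prc1b both stand there as PRC1, so their rows are told apart by Ensembl identifier. Of the 58 rows 57 passed the filter on low counts, and birc5b did not.

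RNA was sequenced from 3 ATG5 and 3 WT liver samples, all from fish given mifepristone and all labelled 2 wpi. The ATG5 fish carry Tg(fabp10a:mCherry-T2A-LexPR;LexOP:ATG5WT), in which the liver promoter fabp10a drives mCherry and the LexPR activator, and mifepristone then lets LexPR switch on human ATG5, an autophagy gene. The WT fish are labelled wild type and had the same drug. The design text calls the groups hepatocellular carcinoma and normal liver. The series has no transgenic fish left without the drug and none with an empty transgene, so ATG5, mCherry, the activator and the fish line cannot be told apart. The labels do not say whether a sample is 1 fish or a pool, so the p-values given here speak of the spread among 6 samples, part of which may be technical. The human transgene was not measured here, so the labels were not checked by it. Libraries held 33668921 to 44763213 estimated counts. Levels are given as CPM, the count as a share of the library on a common scale, after TMM scaling, for replicates 1, 2 and 3 of each group in that order, and 3 counts in a library correspond to 0.0503 to 0.12 CPM. Levels depend on transcript length as well, so they are compared between libraries and not between genes. In a bulk sample, more dividing cells and more RNA per dividing cell cannot be told apart.

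As background, cyclin-dependent kinase 1 with cyclin B starts mitosis, condensin packs the chromosomes, and the kinetochore, a protein layer on the centromere, grips spindle microtubules. The spindle checkpoint keeps the anaphase-promoting complex inactive until every kinetochore is attached, and the central spindle and a contractile ring then divide the cell. In vertebrates most of these genes are transcribed mainly in late S phase, G2 and M phase and are low in resting cells, and adult hepatocytes seldom divide unless the liver is injured.

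The mitotic genes were far higher in ATG5 livers. Of 57 tested, 51 rose and 0 fell (edgeR quasi-likelihood test, adjusted p under 0.05), or 89.5%, where 17.3% of all 20366 tested genes rose and 13.2% fell, 30.6% in either direction. Their log2 folds had a median of 4.54, beside 0.03 over all genes. A log2 fold of at least 4 was found for 38 of the 57, and for 2.61% of all genes. In 54 of the 57 each ATG5 library lay above each WT library, which was the case for 27.1% of all genes. Mitotic genes with few WT counts, such as ccnb2 with 2 counts over the WT libraries, passed the filter only through ATG5. For those a higher level in ATG5 was fixed in advance, so these counts are a description and no test of the list. Such genes were a large part of it. In WT replicates 1 to 3, 36, 36 and 23 of the 58 rows had 10 or more counts, beside 57 in each ATG5 library. The limit also holds for such genes where they are named below. Among them are aurkb, bub1, spc24 and knl1, with at most 8 counts in a WT library. The summed level of all 58 rows was 854, 706 and 921 CPM in ATG5 replicates 1 to 3, and 112, 119 and 94.3 CPM in WT replicates 1 to 3. Before scaling, the 58 rows made up 0.104% to 0.123% of an ATG5 library and 0.00676% to 0.0091% of a WT library. The 6 that did not pass were bub1bb, zw10, spc25, ect2, racgap1 and PRC1 (ENSDARG00000100918), and if counts are divided by library size alone these 6 were called higher too; that setting calls 53.3% of all genes higher and moves their median log2 fold to 0.97. That shift applies to every fold given here, all of which are relative to TMM scaling.

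**Figure D1:**
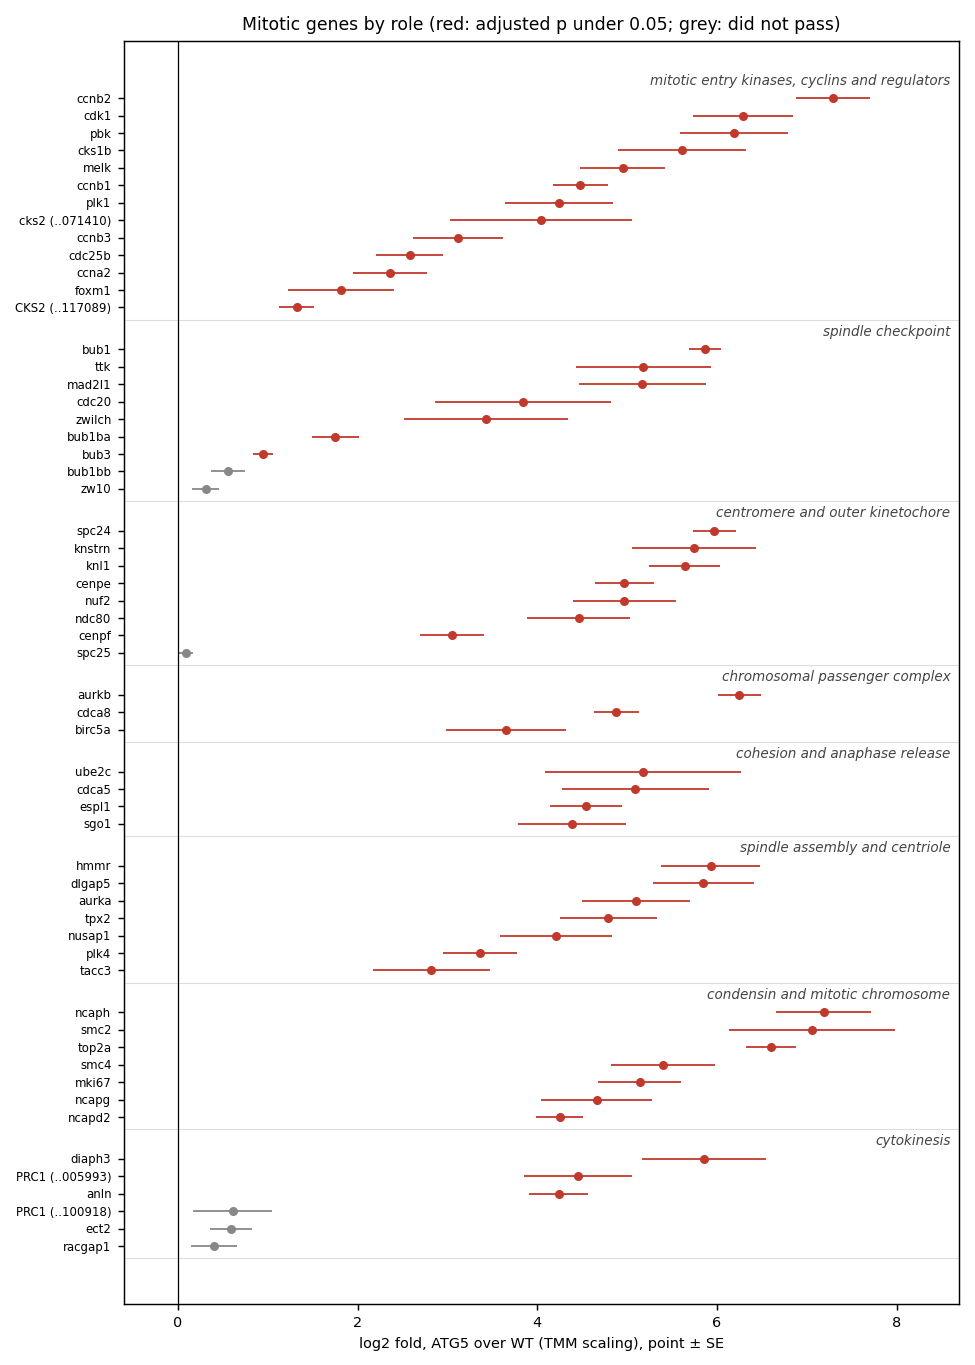
The plot of log2 folds by role shows the 57 mitotic genes tested on the vertical axis. The horizontal axis gives the log2 fold of ATG5 over WT. Bars are the standard error of the difference in mean log2 CPM, and 2 leading dots in a name stand for ENSDARG00000. The bars are drawn around the log2 fold, which near 0 counts can lie beyond that difference by more than the bar (for ccnb2, 7.29 against 6.02). Red points passed the test and run from 0.95 (bub3) to 7.29 (ccnb2), and the 6 grey points did not pass and run from 0.09 (spc25) to 0.61.

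All 13 rows for mitotic entry rose, with a median log2 fold of 4.24. The B-type cyclin gene ccnb1 stood at 16.4, 11.1 and 16.3 CPM in ATG5 and at 0.881, 0.598 and 0.476 CPM in WT. Its partner kinase gene cdk1 stood at 31.5, 22.8 and 29.1 CPM against 0.48, 0.449 and 0.119 CPM, and pbk, which encodes a kinase of mitotic cells, at 14.9, 9.71 and 14.2 CPM against 0.04, 0.269 and 0.198 CPM. In all 3 genes the lowest ATG5 library was replicate 2, and it still lay far above the highest WT library. The log2 folds were 4.48 ± 0.31 (SE) for ccnb1, 6.29 ± 0.56 for cdk1 and 6.19 ± 0.60 for pbk (adjusted p = 0.000808, 0.000913 and 0.00129). The second B-type cyclin, ccnb2, had 677 counts over the ATG5 libraries and 2 over the WT libraries, a ratio of 174 with a counting interval of 48 to 1440.

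Several other genes of mitotic entry had smaller log2 folds than ccnb1 and cdk1, a difference that was not tested. Not all did: melk (4.95) and cks1b (5.61) lay above ccnb1 (4.48). The phosphatase gene cdc25b, whose product activates cyclin-dependent kinases, had a log2 fold of 2.58 ± 0.37, and ccna2, a cyclin of S and G2 phase, one of 2.36 ± 0.41. The transcription factor gene foxm1, known in mammals to activate genes of G2 and M phase, stood at 6.54, 7.35 and 8.44 CPM in ATG5 and 2.64, 2.84 and 0.794 CPM in WT. Its groups did not overlap, and its log2 fold of 1.82 ± 0.59 passed with adjusted p = 0.0291. That call was lost without ATG5 replicate 1, 2 or 3 (adjusted p = 0.0662, 0.0686 and 0.0824) or without WT replicate 1 (0.0668). Another cyclin B gene, ccnb3, had a log2 fold of 3.12 ± 0.50, the mitotic kinase plk1 one of 4.24 ± 0.60 and the kinase melk one of 4.95 ± 0.47.

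The CKS proteins are small subunits that bind cyclin-dependent kinases, and their 3 rows rose by different amounts. The gene cks1b stood at 5.31, 4.25 and 5.89 CPM in ATG5, and at 0, 0.209 and 0.0794 CPM in WT (log2 fold 5.61 ± 0.71). The row cks2 (ENSDARG00000071410) had a log2 fold of 4.04 ± 1.01 with adjusted p = 0.0176, and this call was lost without ATG5 replicate 1, ATG5 replicate 3 or WT replicate 1 (adjusted p = 0.0528, 0.0545 and 0.0618). The row CKS2 (ENSDARG00000117089) stood at 4.6, 4.92 and 4.91 CPM against 1.44, 2.15 and 2.18 CPM, a log2 fold of 1.32 ± 0.19. WT livers held 36 to 72 counts of this row, while cks1b had no more than 7 counts in any WT library.

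Of the 9 spindle checkpoint genes 7 rose, with a median log2 fold of 3.43. The checkpoint kinase gene bub1 stood at 13, 11.4 and 9.83 CPM in ATG5 and 0.24, 0.179 and 0.159 CPM in WT, and ttk, the kinase that starts the checkpoint signal, at 16.1, 11.7 and 13.8 CPM against 0.64, 0.419 and 0.0794 CPM. The gene mad2l1, whose product binds and blocks Cdc20, stood at 8.29, 7.51 and 11.1 CPM against 0.0801, 0.12 and 0.556 CPM. These 3 were nearly silent in WT livers, with at most 16 counts in a library. Their log2 folds were 5.87 ± 0.18, 5.18 ± 0.75 and 5.17 ± 0.71. The target of the checkpoint, cdc20, had a log2 fold of 3.84 ± 0.98, with its WT values spread from 0.0794 to 1.2 CPM.

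The remaining checkpoint genes had smaller log2 folds than these 4. The scaffold gene bub3 stood at 17.2, 14.8 and 14.8 CPM against 8.25, 7.27 and 8.77 CPM, a log2 fold of 0.95 ± 0.11 (adjusted p = 0.00722). The 2 genes of the BubR1 type differed: bub1ba had a log2 fold of 1.75 ± 0.26 (adjusted p = 0.00958), while bub1bb stood at 13, 12.2 and 12.4 CPM against 10.7, 7.87 and 6.91 CPM and did not pass (0.56 ± 0.19, adjusted p = 0.0794). Without WT replicate 1, bub1bb passed (log2 fold 0.75, adjusted p = 0.0387). The products of zwilch and zw10 sit together in a complex that brings checkpoint proteins to kinetochores, and that of zw10 also acts in vesicle traffic in human cells. The gene zwilch stood at 3.48, 3.2 and 4.08 CPM against 0.72, 0.239 and 0.0397 CPM (log2 fold 3.43 ± 0.91, adjusted p = 0.0217). Its call was lost without ATG5 replicate 1, 2 or 3 (adjusted p = 0.0593, 0.051 and 0.062) or WT replicate 2 (0.0696). The gene zw10 stood at 18.1, 23.7 and 17.8 CPM against 15.4, 17.6 and 15.2 CPM, and its log2 fold of 0.31 ± 0.15 did not pass (adjusted p = 0.217).

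Among 8 genes of the centromere and outer kinetochore 7 rose, with a median log2 fold of 4.97. The Ndc80 complex, the kinetochore's main grip on microtubules, consists of the products of ndc80, nuf2, spc24 and spc25. Its gene spc24 stood at 6.24, 7.49 and 9.01 CPM in ATG5 and 0.12, 0.15 and 0.0794 CPM in WT (log2 fold 5.97 ± 0.24, adjusted p = 0.000628). The genes nuf2 and ndc80 had log2 folds of 4.97 ± 0.57 and 4.46 ± 0.57. In contrast, spc25 stood at 14.2, 15.2 and 16.3 CPM against 15.1, 13.3 and 14.5 CPM, and its groups overlapped. Its log2 fold was 0.09 ± 0.08 (adjusted p = 0.668), with a 95% interval of the difference in mean log2 CPM from -0.13 to 0.31. In the share of the complex's counts, spc25 took 35.8%, 39.9% and 36.1% in ATG5 and 92.4%, 93.7% and 97.9% in WT. This share was singled out after its values were seen and was not tested.

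The other kinetochore genes of this role rose as well. The motor gene cenpe stood at 34.8, 26.4 and 31.8 CPM in ATG5 and 1.12, 1.23 and 0.595 CPM in WT, and knl1, the scaffold on which checkpoint proteins gather, at 11.9, 7.39 and 12.3 CPM against 0.2, 0.12 and 0.317 CPM. Each ATG5 library lay above each WT library in both. Their log2 folds were 4.97 ± 0.33 and 5.64 ± 0.40 (adjusted p = 0.000682 and 0.000949). The spindle and kinetochore gene knstrn had a log2 fold of 5.74 ± 0.69, and cenpf, which encodes a large outer kinetochore protein, one of 3.05 ± 0.36.

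**Figure D2:**
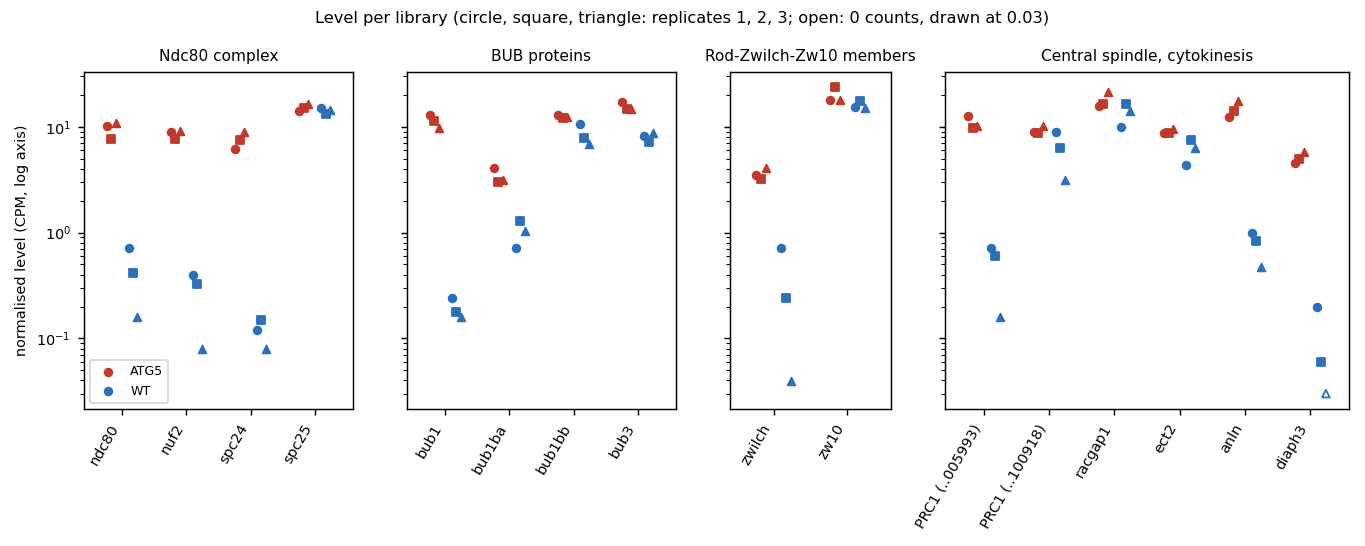
The plot of levels in shared complexes shows the normalised level in CPM, on a log axis, of each library for genes of the Ndc80 complex, the BUB proteins, zwilch with zw10, and cytokinesis (ATG5 red, WT blue); genes are not to be compared in level with each other, and 2 leading dots stand for ENSDARG00000. For ndc80, nuf2 and spc24 the groups lie far apart, while for spc25 the ATG5 libraries (14.2 to 16.3 CPM) and the WT libraries (13.3 to 15.1 CPM) overlap.

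The chromosomal passenger complex, which corrects faulty attachments and later marks the cleavage plane, rose in each of its 3 tested genes. Its kinase gene aurkb stood at 20.4, 15.7 and 17.2 CPM in ATG5 and at 0.32, 0.179 and 0.198 CPM in WT. The borealin gene cdca8 stood at 11.6, 9.59 and 11.2 CPM against 0.24, 0.449 and 0.397 CPM. The WT libraries had at most 8 counts of aurkb and 15 of cdca8. The log2 folds were 6.25 ± 0.24 and 4.88 ± 0.25 (adjusted p = 0.000628 for both), and birc5a, the survivin gene, had one of 3.65 ± 0.67. The paralogue birc5b had 0, 6 and 1 counts in the ATG5 libraries and 0 in each WT library, and was not tested.

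All 4 genes of sister chromatid cohesion and its release rose, with log2 folds from 4.39 to 5.18. The separase gene espl1, whose product cuts cohesin, stood at 12.9, 11.1 and 14.8 CPM in ATG5 and 0.881, 0.329 and 0.476 CPM in WT (log2 fold 4.54 ± 0.40). The shugoshin gene sgo1, which protects cohesin at the centromere, stood at 6.54, 5.38 and 5.64 CPM against 0.48, 0.269 and 0.0794 CPM (4.39 ± 0.60). No values of these genes overlapped between the groups. The sororin gene cdca5, which stabilises cohesin, had a log2 fold of 5.09 ± 0.82, and ube2c, a ubiquitin-conjugating enzyme of the anaphase-promoting complex, one of 5.18 ± 1.09, with 0 counts in WT replicate 3 for both.

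Spindle assembly and centriole genes rose in 7 of 7 cases, with a median log2 fold of 4.79. The gene tpx2, whose product activates Aurora A on the spindle, stood at 26.7, 18 and 27.2 CPM in ATG5 and 1.04, 1.17 and 0.357 CPM in WT (log2 fold 4.79 ± 0.54). The spindle gene dlgap5 stood at 3.86, 9.63 and 7.25 CPM against 0.12, 0.179 and 0.0397 CPM (5.85 ± 0.56). Here ATG5 replicate 2 was the highest of its group and replicate 1 the lowest. The kinase gene aurka had a log2 fold of 5.10 ± 0.60, nusap1, which bundles spindle microtubules, one of 4.21 ± 0.62, and the centriole kinase plk4 one of 3.36 ± 0.41. The gene tacc3, whose product stabilises spindle microtubules, had the smallest log2 fold of these 7, at 2.82 ± 0.65. The spindle gene hmmr had 383 counts over the ATG5 libraries and 3 over the WT libraries, a ratio of 65.6 with a counting interval of 22.3 to 320.

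Condensin and mitotic chromosome genes rose in 7 of 7 cases and had the highest median log2 fold of the 8 roles, 5.40. The topoisomerase gene top2a, which disentangles sister DNA, stood at 93.5, 63.2 and 95.1 CPM in ATG5 and 0.72, 1.14 and 0.714 CPM in WT. The proliferation marker gene mki67, whose product coats mitotic chromosomes, stood at 92.6, 71 and 112 CPM against 2.84, 1.35 and 3.65 CPM. Both were lowest in ATG5 replicate 2, as cdk1 and ccnb1 were. The log2 folds were 6.60 ± 0.28 for top2a and 5.14 ± 0.46 for mki67 (adjusted p = 0.000628 and 0.00126).

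The condensin subunit gene ncapd2 stood at 38.1, 29 and 36.5 CPM in ATG5 and 1.52, 1.47 and 2.46 CPM in WT (log2 fold 4.25 ± 0.26). The condensin core genes smc2 and smc4 had log2 folds of 7.06 ± 0.92 and 5.40 ± 0.58. The ATG5 values of smc2 ran from 15.6 to 33.4 CPM, and ATG5 replicate 3 was the highest. Within the complex, ncapg varied most, at 11.3, 3 and 5.35 CPM in ATG5, and had a log2 fold of 4.66 ± 0.62. The subunit gene ncaph had 910 counts in ATG5 and 3 in WT over the libraries, a ratio of 156 with a counting interval of 53.2 to 757.

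Cytokinesis genes split into 3 that rose and 3 that did not pass. The anillin gene anln, which links the contractile ring to the membrane, stood at 12.5, 14.1 and 17.5 CPM in ATG5 and 1, 0.838 and 0.476 CPM in WT (log2 fold 4.24 ± 0.33, adjusted p = 0.000957). The formin gene diaph3 stood at 4.53, 5.02 and 5.75 CPM against 0.2, 0.0598 and 0 CPM (5.86 ± 0.69). The microtubule bundler PRC1 (ENSDARG00000005993) stood at 12.6, 9.69 and 10.3 CPM against 0.72, 0.598 and 0.159 CPM (4.45 ± 0.60). These 3 had at most 28 counts in a WT library.

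The other 3 cytokinesis rows were expressed in WT livers as well. The second PRC1 row (ENSDARG00000100918) stood at 8.88, 8.8 and 10.3 CPM in ATG5 and 8.89, 6.31 and 3.14 CPM in WT, so its groups overlapped (log2 fold 0.61 ± 0.44, adjusted p = 0.252). The gene racgap1, which forms the centralspindlin complex with a kinesin, stood at 15.6, 16.3 and 21.4 CPM against 9.97, 16.4 and 14.2 CPM, and also overlapped (0.40 ± 0.26, adjusted p = 0.25). The gene ect2, whose product switches on RhoA at the furrow, stood at 8.77, 8.84 and 9.61 CPM against 4.32, 7.45 and 6.27 CPM (0.59 ± 0.23, adjusted p = 0.098). Each of the 3 lies under the folds of anln and diaph3 on the log2 scale. The 95% intervals of their differences in mean log2 CPM ran from -0.51 to 1.96 for PRC1, -0.30 to 1.12 for racgap1 and -0.02 to 1.27 for ect2, so none shows an equal level.

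The 6 genes without a call were all present in WT livers. Each had 79 to 588 counts in every WT library. Some called genes were present there too: bub3 had 206, 243 and 221 WT counts, and ccna2 had 143, 292 and 91. Together the 6 without a call took 57.5%, 57.8% and 63.8% of the mitotic genes' counts in the WT libraries. In the ATG5 libraries they took 9.2%, 12% and 9.54%. The other 51 summed to 776, 621 and 833 CPM in ATG5 and 47.6, 50.4 and 34.2 CPM in WT. Estimated counts that are not whole numbers can arise where reads were shared out between transcripts of different genes; a value within 0.01 of a whole number was taken as whole. Of 9 mitotic genes with such values in all 6 libraries, 5 did not pass (bub1bb, spc25, PRC1 ENSDARG00000100918, racgap1 and ect2) and 4 rose (ccna2, ccnb3, plk1 and cenpf). Of 11 with such values in 1 to 5 libraries, 11 rose. Of 37 with whole values in all 6 libraries, 36 rose and zw10 did not pass. For comparison, 37.7% of the values of all genes were not whole, beside 26.7% of those of the mitotic genes. A count of 0 is whole, so a gene without reads in a WT library cannot be among the 9. This grouping thus depends on the WT level too, and cannot tell shared reads from that level. The part of shared reads in the levels of the mitotic genes was not tested.

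Since a share of counts within a library does not depend on scaling, paralogues and partner genes were compared in that way. The PRC1 row ENSDARG00000005993 took 58.6%, 52.4% and 50% of the counts of both PRC1 rows in ATG5 and 7.5%, 8.66% and 4.82% in WT. The difference between the means was 46.7 percentage points. Its exact two-sided permutation p was 0.1, the smallest that 3 against 3 samples can give, so this design cannot pass 0.05, and adjusted over 5 pairs it was 0.125. The gene cks1b took 37.3% ± 1.96 of the counts of cks1b and both cks2 rows in ATG5 and 3.71% ± 3.81 in WT. For bub1ba against bub1bb the share was 21.4% ± 2.04 and 11.1% ± 4.21, and for ccnb1 against ccnb2 it was 77.8% ± 2.83 and 97% ± 5.25. In these 3 pairs the groups did not overlap either, and the exact permutation p was again 0.1 (0.125 adjusted). Some WT shares rest on few counts: in WT replicates 1 to 3, ccnb2 had 0, 2 and 0 counts and cks1b had 0, 7 and 2. Both genes passed the filter only through ATG5, so the shares of these 2 pairs are a description. In the birc5 pair birc5a took 94.6% to 100% in ATG5 and 100% in WT (exact permutation p = 0.4). The WT share rests on 1, 10 and 7 counts of birc5a, too few to show a small share of birc5b.

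**Figure D3:**
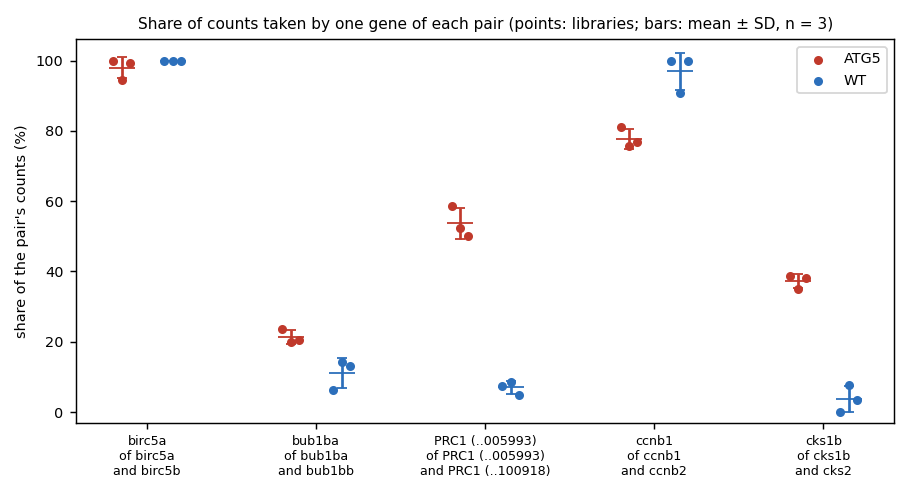
The plot of paralogue shares gives, for each of 5 pairs on the horizontal axis, the percentage of the pair's counts taken by the first gene in each library, with the mean and SD of 3 libraries per group (ATG5 red, WT blue). The PRC1 pair shows the widest gap, with ATG5 at 50% to 58.6% and WT at 4.82% to 8.66%.

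Replicates of a group did not express the mitotic genes to the same degree. ATG5 replicate 2 was the lowest of its group for 42 of the 57 tested mitotic genes, against 34.9% of all genes, and replicate 3 was the highest for 32, against 33.4% of all genes. WT replicate 3 was the lowest of its group for 33 of the 57, against 35.3% of all genes. The median coefficient of variation of the mitotic genes was 17.5% in ATG5 and 57.3% in WT, where that of all genes was 20.9% and 23.6%. In WT the counts were small: 6 to 21 of the 58 rows had 3 counts or fewer in a library, beside 0 or 1 in ATG5. Leaving out any 1 library kept the number of mitotic genes called higher between 48 and 51 and their median log2 fold between 4.38 and 4.79.

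Other genes of cell division, from lists drawn up without the genes above, were followed to see how far the pattern reached. These lists too were chosen with earlier results of these data known. Their counts are set beside the 17.3% of all genes that rose and the 13.2% that fell. The inner kinetochore, MIS12 and SKA genes moved most: 18 of 25 rose (72%) and 1 fell (4%), with a median of 3.25 in log2 fold. The gene kntc1, which encodes Rod, the partner of Zwilch and Zw10, stood at 16.2, 13.2 and 16.7 CPM in ATG5 and 0.44, 0.419 and 0.278 CPM in WT (log2 fold 5.32 ± 0.21), and nsl1 of the MIS12 complex had a log2 fold of 5.04 ± 0.12. Its complex partner mis12 fell, at 5.46, 5.42 and 7.41 CPM against 11.4, 8.56 and 11.5 CPM (-0.78 ± 0.20, adjusted p = 0.0354). The mis12 call was lost without ATG5 replicate 1 or 2 (adjusted p = 0.106 and 0.0959) or WT replicate 1 or 3 (0.102 and 0.0935). With library sizes only its log2 fold was 0.16.

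In the list of cohesin, its regulators and condensin II, 6 of 22 genes rose (27.3%) and 3 fell (13.6%, close to the share of all genes). The median log2 fold was 0.26. The cohesin acetylase gene esco2 and the condensin II gene ncapg2 rose by 5.66 ± 0.24 and 6.24 ± 0.32. The cohesin loader genes NIPBL (ENSDARG00000061052) and mau2 fell (-0.75 ± 0.13 and -0.67 ± 0.09), as did WAPL (ENSDARG00000044144), which releases cohesin (-0.63 ± 0.14). With library sizes only the 3 turned to 0.20, 0.28 and 0.32 and did not pass. NIPBL and WAPL each had another row, which was not called lower. The NIPBL call was also lost without WT replicate 1, and the WAPL call without any of ATG5 replicates 1 and 3 and WT replicates 1, 2 and 3.

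The anaphase-promoting complex is the ligase that ube2c and cdc20 serve. Of its 18 genes 5 rose (27.8%) and 1 fell (5.56%), with log2 folds of at most 1.28. The subunit gene cdc23 had a log2 fold of 1.28 ± 0.09 and the conjugating enzyme gene ube2s one of 1.27 ± 0.16. The subunit gene cdc26 fell (-0.69 ± 0.13), but stood at 0.25 with library sizes only and lost its call without any of ATG5 replicates 1, 2 and 3 and WT replicates 1 and 3.

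Centrosome and spindle genes rose in 17 of 32 cases (53.1%), and 3 fell (9.38%), with a median of 0.96 in log2 fold. The centriole gene sass6 and the augmin gene haus5 had log2 folds of 4.03 ± 0.28 and 6.49 ± 0.58. The microtubule gene clasp1a fell (-1.15 ± 0.11), and was at -0.19 without a call with library sizes only. The augmin gene haus4 had a log2 fold of -0.93 ± 0.29, which turned to 0.03 with library sizes only and lost its call without ATG5 replicate 1, 2 or 3 or WT replicate 1 or 3. The centrosome gene cep192 stood at 11.5, 14.8 and 10.6 CPM in ATG5 and 123, 172 and 15.6 CPM in WT. WT replicate 3 thus lay close to the ATG5 libraries, and the call (-3.07 ± 1.09, adjusted p = 0.0314) was lost without ATG5 replicate 1, 2 or 3 or WT replicate 1 or 2, and with library sizes only (adjusted p = 0.0546).

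Of 26 furrow, septin and abscission genes 11 rose (42.3%) and 2 fell (7.69%); the median log2 fold was 0.61. The citron kinase row CIT (ENSDARG00000089856), which acts at the midbody, rose by 3.67 ± 0.36. The myosin gene myh10 fell, from 515, 296 and 365 CPM in WT to 113, 109 and 90.6 CPM in ATG5 (-1.91 ± 0.25), and stayed lower with library sizes only (-0.95, adjusted p = 0.0127). SEPTIN9 (ENSDARG00000020235) fell by 1.25 on the log2 scale, a call lost with library sizes only (-0.30) and without ATG5 replicate 1 or WT replicate 1, 2 or 3. The other SEPTIN9 row was not called lower.

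Among 23 tested genes of mitotic entry and exit enzymes and the MuvB complex 7 rose (30.4%) and 1 fell (4.35%); the median log2 fold was 0.24. MuvB with B-Myb is known in mammals to activate genes of G2 and M phase. The B-Myb gene mybl2b stood at 8.74, 8.05 and 10.9 CPM in ATG5 and 0.52, 0.718 and 0.952 CPM in WT (log2 fold 3.65 ± 0.27). The row ARPP19 (ENSDARG00000039880), whose product inhibits a phosphatase that opposes mitosis, had one of 0.96 ± 0.12. The MuvB gene lin54 fell (-0.86 ± 0.13), but was at 0.09 with library sizes only.

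Genes of cell cycle exit moved in both directions. Of 17 tested genes 3 rose (17.6%), 5 fell (29.4%) and 9 did not pass (median log2 fold -0.26), while with library sizes only 8 were higher and 1 lower (median 0.71). The retinoblastoma gene rb1, which holds back entry into S phase, rose from 5.72, 3.56 and 4.05 CPM in WT to 10.1, 10.4 and 9.01 CPM in ATG5 (log2 fold 1.15 ± 0.21, adjusted p = 0.0123). The kinase inhibitor genes cdkn2c and cdkn1a rose by 1.82 ± 0.39 and 1.11 ± 0.13 on the log2 scale. The cdkn1a call was lost without any 1 of the 6 libraries (adjusted p = 0.0563 to 0.0884), and the cdkn2c call without any 1 except ATG5 replicate 2 (0.0619 to 0.0918). The antiproliferative gene tob1b stood at 147, 169 and 209 CPM in ATG5 and 812, 564 and 533 CPM in WT (log2 fold -1.86 ± 0.24), and stayed lower with library sizes only (-0.91, adjusted p = 0.0135). Its paralogue tob1a fell by 1.38 (SE 0.12), and its adjusted p was 0.0561 with library sizes only. Both DYRK1A rows and CDKN1B (ENSDARG00000054271) fell by 0.77, 0.71 and 0.62, and turned to 0.18, 0.23 and 0.34 with library sizes only. The other CDKN1B row was not called lower. The calls of CDKN1B (ENSDARG00000054271) and of DYRK1A (ENSDARG00000023814) were each lost without 4 of the 6 libraries. Those in common were ATG5 replicates 1 and 3 and WT replicate 1.

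**Figure D4:**
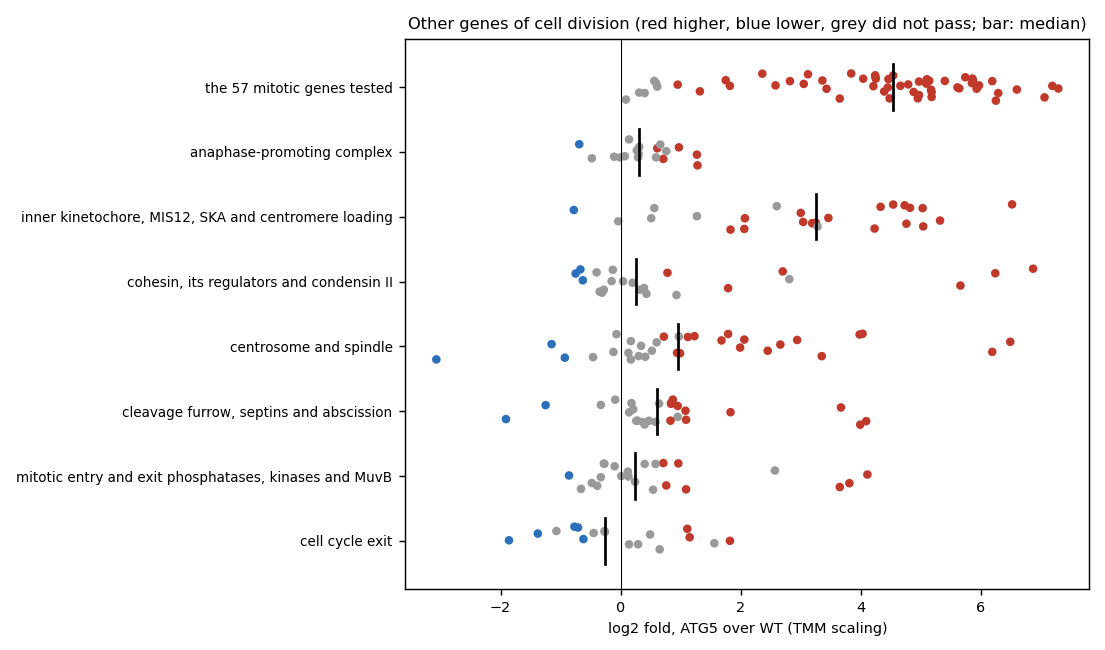
The plot of other cell division lists shows the log2 fold of ATG5 over WT on the horizontal axis for each tested gene of 8 lists, with red for genes called higher, blue for lower, grey for no call and a black bar for the median. The 57 mitotic genes have a median of 4.54 and the inner kinetochore list 3.25, while the anaphase-promoting complex list stays between -0.69 and 1.28.

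Markers of other cells moved in the same samples, and their counts are set beside the 17.3% of all genes that rose and the 13.2% that fell. Of 17 tested rows for macrophage and other leukocyte markers 14 rose and 1 fell. Their summed level was 1500 to 1900 CPM in ATG5 and 213 to 296 CPM in WT. Several of these rows share the symbol MFAP4, so the rows are not all separate markers. The row that fell was MFAP4 (ENSDARG00000090557), while other MFAP4 rows rose. The 2 without a call were an MFAP4 row and lyz (log2 fold -0.06, adjusted p = 0.953). Of 9 tested lymphocyte markers 7 rose, and the sum was 48.6 to 119 CPM against 4.96 to 6.37 CPM. No marker of these lists was at 0 counts throughout either group. Of 10 tested biliary markers 7 rose, with sums of 3270 to 4380 CPM against 1170 to 1570 CPM. Of 15 hepatocyte markers 12 fell, or 9 with library sizes only, where 2.84% of all genes fell. Their sum was 81800 to 113000 CPM in ATG5 against 262000 to 318000 CPM in WT. The hepatocyte marker fabp10a was present in all libraries, at 4900 to 8670 CPM in ATG5 and 9560 to 13300 CPM in WT. It did not pass the test (log2 fold -0.91 ± 0.30, adjusted p = 0.0764). Its unscaled counts, 263029, 253821 and 516989 in ATG5 and 331234, 319636 and 309568 in WT, overlapped between the groups. ATG5 replicate 2, which was low for most mitotic genes, also had the lowest sums of the leukocyte, lymphocyte, biliary and hepatocyte lists among the ATG5 libraries. For the biliary list this depends on the measure. Its mean log2 CPM, centred over the 6 libraries, was 0.69 in ATG5 replicate 1 and 0.71 in ATG5 replicate 2. The part of dividing leukocytes or bile duct cells in the mitotic genes was not tested.

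No germ cell or erythroid marker passed the test. Of 14 germ cell and ovary markers 3 passed the filter and 0 were called. The genes gdf9 and figla had no count in any library, zp2.1 had none in ATG5, and nanos3 had none in WT and 2 in each ATG5 library. Among those not tested, ddx4 had 3, 3 and 6 counts in ATG5 and 26, 38 and 0 in WT. The gene buc, also not tested, had 13, 18 and 8 in ATG5 and 2, 1 and 0 in WT. The egg coat gene zp3b stood at 0.82, 26.6 and 0.369 CPM in ATG5 and 0.329 to 0.6 CPM in WT, so it was high in ATG5 replicate 2 only. Of 7 erythroid markers 0 were called, with sums of 49.2 to 356 CPM in ATG5 and 135 to 672 CPM in WT. Of 8 tested endothelial and stellate markers 1 rose and 1 fell, or 12.5% each, near the 17.3% and 13.2% of all genes. Their sum was 139 to 152 CPM in ATG5 against 158 to 195 CPM in WT. For this list too the direction depends on the measure, since the median log2 fold was 0.26. Its mean log2 CPM, centred over the 6 libraries, was 0.04 to 0.24 in ATG5 and -0.3 to 0.21 in WT. With library sizes only, 6 of the 8 were called higher, where 53.3% of all genes were. The list pools 2 cell types. The gene that fell was the endothelial kdrl (log2 fold -0.8), and the gene that rose was the stellate hand2 (1.23). Genes without a call went both ways within each type. Of the endothelial genes, cdh5 and fli1a were at -0.26 and -0.36 and stab2 at 0.84. Of the stellate genes, acta2 and col1a1a were at 0.81 and 0.77 and pdgfrb at -0.37.

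**Figure D5:**
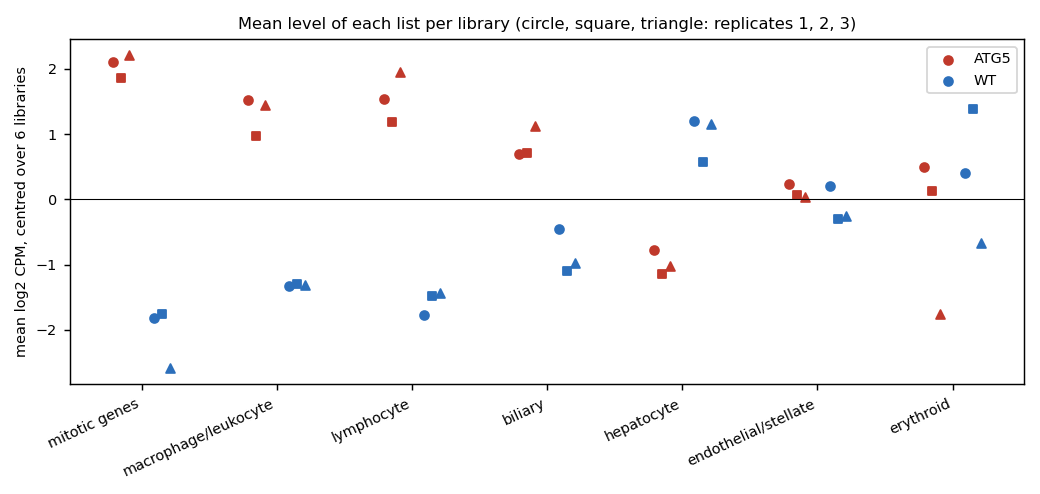
The plot of list levels shows, for the mitotic genes and 6 marker lists on the horizontal axis, the mean log2 CPM of the tested genes in each library, centred over the 6 libraries (ATG5 red, WT blue). The mitotic genes lie at 1.86 to 2.21 in ATG5 and -2.59 to -1.76 in WT, the leukocyte and lymphocyte lists also lie higher in ATG5, and the hepatocyte list lies lower.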

How the data were processed

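Estimated counts per Ensembl gene were deposited by the authors. Per the submitters' processing notes, the build was GRCz11, and the tools named, in no stated role, were kallisto 0.45.0, sleuth 0.30.0 and FastQC 0.11.5. Per the labels' protocols, RNA came from a TRIzol extraction and libraries from a TruSeq Stranded Total RNA kit. Not given in the sources used here was how strand was handled in counting, so antisense genes cannot be told apart, and counts of paralogues are uncertain where reads can be split. Columns were matched to samples by their descriptions, and groups came from titles.

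Of 30628 rows 77.1% had a symbol. The mitotic genes, roles, other lists and markers were chosen with earlier results of these data known. Estimated counts were rounded to whole numbers, filtered with filterByExpr (20366 genes left) and scaled by TMM. The quasi-likelihood test of edgeR 4.0.16 (glmQLFit, glmQLFTest; R 4.3.3) compared ATG5 with WT, with Benjamini-Hochberg adjustment over all genes at 0.05. Log2 folds come from the edgeR fit, but SEs come from log2 CPM (prior count 2), which narrows them near 0 counts. Each SE thus belongs to the difference in mean log2 CPM, which for spc24 was 5.54 beside a fold of 5.97. The gap was wider for ccnb2, at 6.02 beside a fold of 7.29, and its SE of 0.41 does not span it. Ratios with 1 to 3 WT counts have exact intervals that cover counting error only, as do the 3-count floors.

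Named were, in each role, the 2 or 3 called genes with the smallest p and each gene without a call. In each other list the 2 called genes with the smallest p and those that fell were named. Further members were added for their roles. The genes rb1, cdkn2c, cdkn1a, fabp10a, zp3b, lyz, MFAP4, ddx4, buc and the endothelial and stellate markers were added after their values were seen. Chi-square tests over genes found no libraries within sampling noise of each other. Same-numbered samples did not deviate together (r = -0.04, -0.1 and 0.02), so numbers were not taken as pairs. Steps were tested on simulated data in which as many genes rose as fell. That simulation had no difference in scaling between the groups, while here the TMM factors were 1.33 to 1.47 in ATG5 and 0.684 to 0.763 in WT. It therefore cannot speak to the scaling. Alternatives included DESeq2 1.42.0 and limma 3.58.1. Figures were drawn with matplotlib 3.10.9.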

Additional observations from a re-analysis of the deposited data

How the results depend on the processing

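Under RLE and upper-quartile scaling, without the 50 most abundant and mitochondrial genes, without a filter, with a stricter filter, with DESeq2 and with limma-voom, each of the 57 tested mitotic genes kept its direction and its side of the threshold. With library sizes only, their median log2 fold was 5.49 in place of 4.54, all 57 were called, and over all genes 10853 were higher and 578 lower. A threshold of 0.01 took away 6 of the 51 calls (1518 higher and 953 lower over all genes), and a test against a log2 fold of 1 took away 5 (1362 and 492). With the replicate number as a block, which the labels do not show to be a pairing, 48 mitotic genes were called, and 2253 genes were higher and 1636 lower over all genes; of the ATG5 libraries, replicate 3 alone correlated best with the WT library of its own number. The calls lost with the block were those of cks2 (ENSDARG00000071410), foxm1 and zwilch.

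Leaving out 1 library at a time gave 48 to 51 mitotic genes higher and 0 lower, a median log2 fold of 4.38 to 4.79, and 2218 to 2791 genes higher and 1583 to 2071 lower over all genes. The lowest counts came without WT replicate 1 (2218 and 1583), followed by 2312 and 1614 when ATG5 replicate 1 was left out. The paralogue differences ran from 44.2 to 48.5 percentage points for PRC1, 31.7 to 35.5 for cks1b, 7.82 to 11.7 for bub1ba, -22.2 to -17.7 for ccnb1 and -3.03 to -0.327 for birc5a. For the genes outside the mitotic list, alternatives were added after seeing the data: with library sizes only, log2 folds turned from below to above 0 for cdc26 (0.25), mis12 (0.16), mau2 (0.28), NIPBL (0.20), WAPL (0.32), haus4 (0.03), lin54 (0.09), CDKN1B (0.34) and the DYRK1A rows (0.23 and 0.18), a setting that moves the median of all genes from 0.03 to 0.97. Of the named genes outside the mitotic list, cdkn2c and cep192 also lost their calls with limma-voom (adjusted p = 0.0767 and 0.0754). Without a filter, mis12 and haus4 lost theirs. The share of promoters with a motif, planned with its alternative, was not run. In WT, where 23 to 36 of the 58 rows had 10 or more counts in a library, depth limits the precision of the folds.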
